A study of Mus musculus with 8 samples.

Results

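The genes described here encode the receptors for GABA, glutamate, glycine and serotonin, with the enzymes that make GABA and the transporters that load GABA, glycine or glutamate into synaptic vesicles. They were chosen by symbol alone: names that start with Gabr, Gria, Grik, Glra or Glrb, or with Grin, Grm or Htr before a digit, plus Gad1, Gad2, Slc32a1, Slc17a6 and Slc17a7. The rule found 62 of 22180 measured genes, each taken from whichever probe set, of those annotated to that symbol alone, had the highest mean. A mouse gene table of the GRCm38.p6 assembly lists 68 symbols that meet the rule, and the 6 without such a probe set are not analysed here.

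Expression was measured by microarray in 8 mouse tumours, 1 array each. All 8 carry 1 label, a neuroblastoma derived from neural crest cells that were given N-Myc, a MYC family protein whose gene is amplified in aggressive neuroblastoma of children. The crest cells were a mixture of p53+/- and p53-/- cells, about 10000 of them were placed under the skin 48 hours after infection, and the tumours were removed after roughly 50 days. The hosts were nude mice, which lack T cells, or C57Bl/6 mice, but host and p53 genotype are not assigned to single tumours in the labels, nor is it stated that each came from its own animal or culture. There is thus 1 group (n = 8) and no control tissue, and p-values measure the spread between these samples.

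GABA and glycine open chloride channels built from 5 subunits, glutamate opens AMPA, kainate and NMDA cation channels and also acts through the metabotropic receptors coupled to G proteins, and serotonin acts on G protein-coupled receptors except for its channel, which is encoded by the Htr3 genes. Mature sympathetic neurons use noradrenaline or acetylcholine as transmitters, but they carry GABA-A and serotonin channels. Immature neurons often respond to GABA with depolarisation, because the chloride importer Slc12a2 is active before the exporter Slc12a5.

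The labelled tissue was checked against its markers. All 7 measured sympathetic neuroblast markers were detected, with a mean level from 9.33 in tumour 6 to 11.30 in tumour 8. Glial markers averaged 9.01 (tumour 4), 7.67 (tumour 6) and 5.73 to 6.42 (the others). Of these markers 4 of 6 were detected, against 57.3% of all genes. Macrophage, endothelial and fibroblast markers were detected in full (5 of 5 each), muscle markers in 3 of 6 with Myod1 at background, and T cell markers in 1 of 5. Markers of GABAergic forebrain interneurons were detected in 5 of 6. The share over all genes is the same 57.3%, so such small counts do not identify a cell type. These are bulk tumours, in which fewer cells of a type and less RNA per cell cannot be told apart. Array medians lay between 5.63 and 5.75.

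The channels for glutamate of the AMPA and kainate type were measured above background nearly in full, while most GABA-A, metabotropic glutamate and serotonin receptor genes were not. Background on each array was the 95th percentile of 1440 probe sets for olfactory, vomeronasal and bitter taste receptors, and lay between 5.45 and 5.66 on the log2 scale. A gene was called detected when its mean over the tumours exceeded that background with an adjusted p under 0.05 in limma. By this rule 23 of the 62 members (37.1%) were detected, against 57.3% of all 22180 genes. The median member lay 0.17 below background (median of mean minus background, -0.17), and the median of all genes lay 0.68 above it. Of the other 39 members, 24 were above background in no tumour and 15 in some tumours. The background level sets these counts: 38 members were called against the 90th percentile of the same probe sets and 7 against the 99th, namely Gad2, Gria2, Gria4, Grik2, Grik4, Grik5 and Htr3a.

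**Figure D1:**
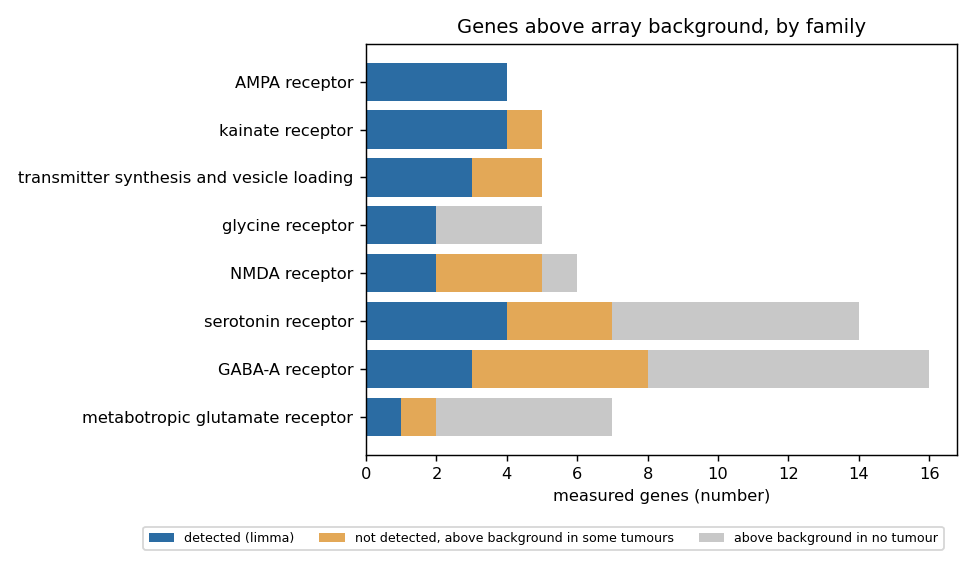
Number of measured genes in each family (horizontal axis) that were detected over the 8 tumours by limma (blue), were not detected but lay above the array background in some tumours (orange), or lay above it in no tumour (grey). All 4 AMPA receptor genes are blue, against 3 of 16 GABA-A receptor genes.

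GABA is made from glutamate by glutamate decarboxylase, and its genes Gad1 and Gad2 differed in their spread over the tumours. Gad2, which encodes the form found at nerve terminals, was at 8.22, 9.12, 9.46, 6.42, 10.09, 5.57, 9.40 and 10.29 in tumours 1 to 8. Tumours 4 and 6 were low and the other 6 lay at 8.22 or above, so the range over all 8 was 4.72 log2 units. The mean was 8.57 ± 1.72 (SD, n = 8), which is 2.98 ± 0.54 (SE) above background (limma, adjusted p = 0.000406). In tumour 6 the level of 5.57 was next to the array background of 5.54.

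Gad1, which encodes the form that makes GABA throughout the cell, stayed between 5.59 and 6.10 in all tumours, with a mean of 5.89 ± 0.20 (SD, n = 8) that was 0.31 above background (limma, adjusted p = 0.00138). Gad1 and Gad2 did not rank the tumours alike (Pearson r = 0.063, exact permutation p = 0.902, Spearman rho = -0.29, exact p = 0.501, adjusted p = 0.902 and 0.647, n = 8). The SD of Gad1 was under 0.41, the 99th percentile of the olfactory, vomeronasal and taste receptor probe sets. Its order of the tumours is therefore weakly measured, and the low r is not read as a difference between the genes. Slc32a1, the vesicular transporter for GABA and glycine, ran from 5.45 to 6.12 with a median of 5.70. Its mean was 0.16 above background and barely passed (limma, adjusted p = 0.048). Leaving out tumour 3, 4, 5, 6 or 8 ended that call, as the difference was 0.12 to 0.16 and the limma adjusted p 0.0814 to 0.126, and the other Slc32a1 probe set averaged just below background (-0.013 log2 units).

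The vesicular glutamate transporter Slc17a6 (VGLUT2) was present in some tumours only. It was at 4.94, 7.40, 4.59, 6.85, 5.10, 9.24, 4.84 and 4.96 in tumours 1 to 8. Tumour 6 was highest, tumours 2 and 4 were also above their array background, and the remaining 5 were below it. Its mean of 5.99 ± 1.67 (SD, n = 8) was 0.40 ± 0.52 (SE) above background and was not called detected (limma, adjusted p = 0.466). The test asks for a mean above background beyond the spread between tumours, and not for a level in single tumours. Slc17a7 (VGLUT1) averaged 5.42 ± 0.26 (SD, n = 8) and was above background in 2 of 8 tumours, with a highest level of 5.86. The tumours with the lowest Gad2, 4 and 6, were thus among the 3 that had Slc17a6 above background.

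**Figure D2:**
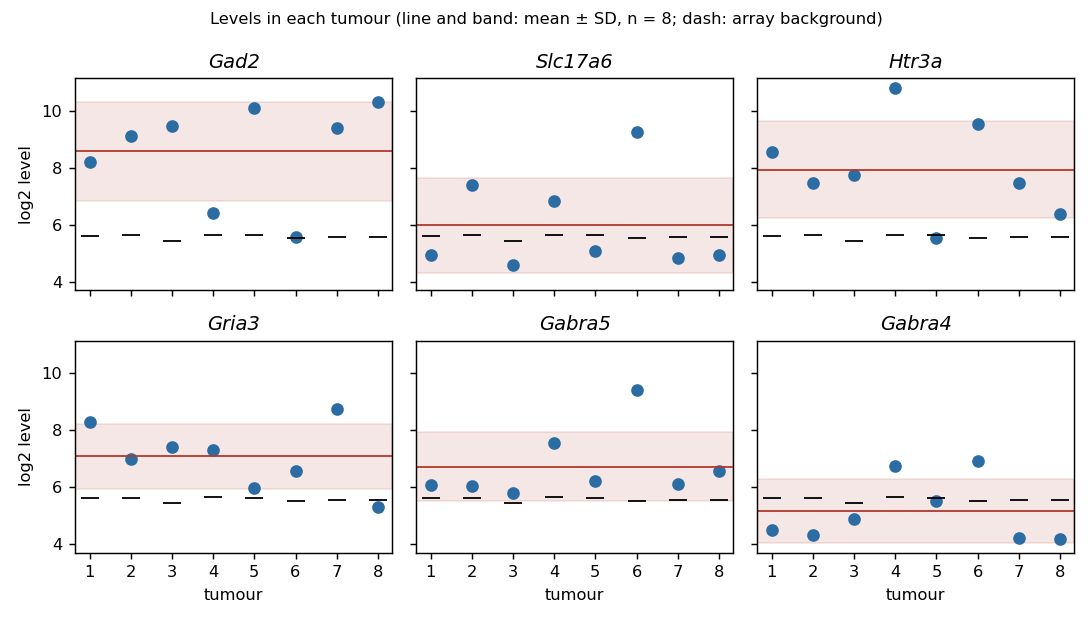
Log2 level (vertical axis) of 6 genes in tumours 1 to 8 (horizontal axis), 1 point per tumour, with the mean as a line, mean ± SD (n = 8) as a band and the background of each array as a dash. Gad2 was lowest in tumours 4 and 6, where Gabra4 and Gabra5 were highest, and Slc17a6 reached 9.24 in tumour 6.

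The stretch before the start of the genes for Gad2, Slc17a6, Gabra4 and Gabra5 is shown because Gad2 was low in the 2 tumours where Gabra4 and Gabra5 were highest. Each is the 250 bases upstream of the transcript start in RefSeq (GRCm38.p6), 5′ to 3′ on the strand of the gene, with the letters CANNTG, the core bound by basic helix-loop-helix factors such as N-Myc and Hand2, in capitals. The Slc17a6 window belongs to the first of the 2 starts listed. The windows are chr2:22622077-22622326 on the plus strand for Gad2, chr7:51621580-51621829 on the plus strand for Slc17a6, chr5:71658309-71658558 on the minus strand for Gabra4 and chr7:57510060-57510309 on the minus strand for Gabra5.
Gad2: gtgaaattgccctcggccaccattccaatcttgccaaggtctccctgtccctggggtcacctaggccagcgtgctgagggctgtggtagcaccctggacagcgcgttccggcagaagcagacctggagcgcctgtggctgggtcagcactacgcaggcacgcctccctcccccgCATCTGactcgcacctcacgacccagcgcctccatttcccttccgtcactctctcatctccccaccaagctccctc
Slc17a6: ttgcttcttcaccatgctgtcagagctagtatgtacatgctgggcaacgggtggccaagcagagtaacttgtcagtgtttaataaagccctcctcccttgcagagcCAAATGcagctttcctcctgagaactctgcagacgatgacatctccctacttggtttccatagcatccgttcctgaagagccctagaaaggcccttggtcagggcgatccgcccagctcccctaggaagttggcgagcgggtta
Gabra4: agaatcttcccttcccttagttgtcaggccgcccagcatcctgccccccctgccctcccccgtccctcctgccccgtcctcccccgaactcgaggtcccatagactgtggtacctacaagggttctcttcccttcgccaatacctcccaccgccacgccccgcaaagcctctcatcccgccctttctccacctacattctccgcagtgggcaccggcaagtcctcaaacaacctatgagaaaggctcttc
Gabra5: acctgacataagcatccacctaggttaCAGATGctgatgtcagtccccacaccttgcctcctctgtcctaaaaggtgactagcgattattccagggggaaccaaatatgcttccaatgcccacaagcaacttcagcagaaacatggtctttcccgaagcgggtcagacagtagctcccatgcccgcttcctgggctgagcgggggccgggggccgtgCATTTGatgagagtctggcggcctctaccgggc
CANNTG occurred 1 time before Gad2, 1 time before Slc17a6, 2 times before Gabra5 and in no place before Gabra4. Over the genes, with 1 window each and both strands read, 28 of the 49 members with a window (57.1%) and 11 of the 15 detected members with a window (73.3%) held it, against 66.0% of 27025 genes. The form CACGTG, preferred by N-Myc and itself 1 of the CANNTG forms, was in 0 of 49 member windows and in 6.05% of all windows. TAATTA, a core of homeodomain factors, was in 2 of 49 (4.08%) and in 4.90% of all. These are counts of letters in a short window and say nothing on binding.

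AMPA receptors carry fast excitatory transmission, and all 4 subunit genes were detected. Gria2, whose edited subunit keeps the channel closed to calcium, ranged from 8.85 in tumour 4 to 10.22 in tumour 7 with a median of 9.57. Every tumour was far above background, by 3.99 ± 0.16 (SE) on average (limma, adjusted p = 2.76e-10), and the SD was 0.51. Gria4 varied little, from 8.42 to 9.24 with a median of 8.86 (3.28 above background, limma, adjusted p = 3.68e-12, SD 0.27).

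Gria1 and Gria3 differed more between tumours. Gria1 ran from 5.60 in tumour 4, just under the array background of 5.66, to 8.04 in tumour 3, with a median of 6.87 and an SD of 0.84. Gria3 was at 8.29, 6.99, 7.41, 7.32, 5.96, 6.58, 8.74 and 5.32 in tumours 1 to 8, with an SD of 1.13. Tumours 7 and 1 were high, tumours 5 and 8 were low, and tumour 8 was below its array background of 5.57. This spread did not rest on tumours 4 and 6, without which the SD of Gria3 was 1.32.

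Of the AMPA and kainate auxiliary subunits, which carry the channels to the surface and tune their gating, 11 of 14 were detected, against 57.3% of all genes. Cacng7 was at 10.95 ± 0.26, Cacng4 at 10.26 ± 0.41 and Cacng3 at 9.63 ± 0.82 (SD, n = 8). Cacng3 and Cacng4 were lowest in tumour 6 (7.90 and 9.31), and Cacng5 was highest in tumour 8 (8.37 against 6.02 to 6.60 elsewhere). Cnih2, a cornichon protein that slows AMPA receptor closing, was at 9.28 ± 0.52.

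Kainate receptors include high-affinity subunits, Grik4 and Grik5, which work only together with Grik1, Grik2 or Grik3. Grik5 ranged from 9.32 to 9.79 with a median of 9.50, 3.94 ± 0.07 (SE) above background (limma, adjusted p = 4.25e-14). With an SD of 0.18 it was nearly even over the tumours. Grik2 ran from 6.14 in tumour 5 to 7.74 in tumour 2 with a median of 7.29 (limma, adjusted p = 1.73e-06). Grik1 was lowest in tumours 6 (5.61) and 4 (6.03) and highest in tumour 7 (7.20). Grik4 also had its lowest levels in tumours 6 and 4 (6.26 and 6.29), and the other 6 lay between 6.88 and 7.52. Grik3 was the exception, above background in 1 tumour, with 6.91 in tumour 4 and 4.85 to 5.34 in the other 7.

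NMDA receptor genes were near background. Grin2d averaged 6.16 ± 0.12 (SD, n = 8; 0.58 above background, limma, adjusted p = 1.39e-06). Grin2b, the subunit typical of immature neurons, averaged 5.96 ± 0.42 and was highest in tumour 6 (6.85). Grin2b has another probe set, at 4.22, which was above background in no tumour, and with the mean of both the gene fell below background. Grin3a was above background in 4 of 8 tumours, with a highest level of 6.63 in tumour 6. Grin2c was above it in 5 tumours and Grin3b in 4, with means of 0.013 and -0.0098 relative to background. Grin2a reached 4.96 at most and was above background in none.

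Among the metabotropic glutamate receptors 1 of 7 was detected, Grm4, which inhibits adenylyl cyclase, at 6.14 ± 0.21 (SD, n = 8; limma, adjusted p = 1.44e-05). Grm5, which couples to phospholipase C, was above background in 5 of 8 tumours and highest in tumours 6 and 4 (6.84 and 6.79), with 4.86 to 6.04 in the others. Its mean missed the threshold (limma, adjusted p = 0.155), but passed without tumour 2, the lowest (0.49 above background, limma, adjusted p = 0.0233). The other 5 genes had means from 3.93 to 5.21 and were above background in no tumour.

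**Figure D3:**
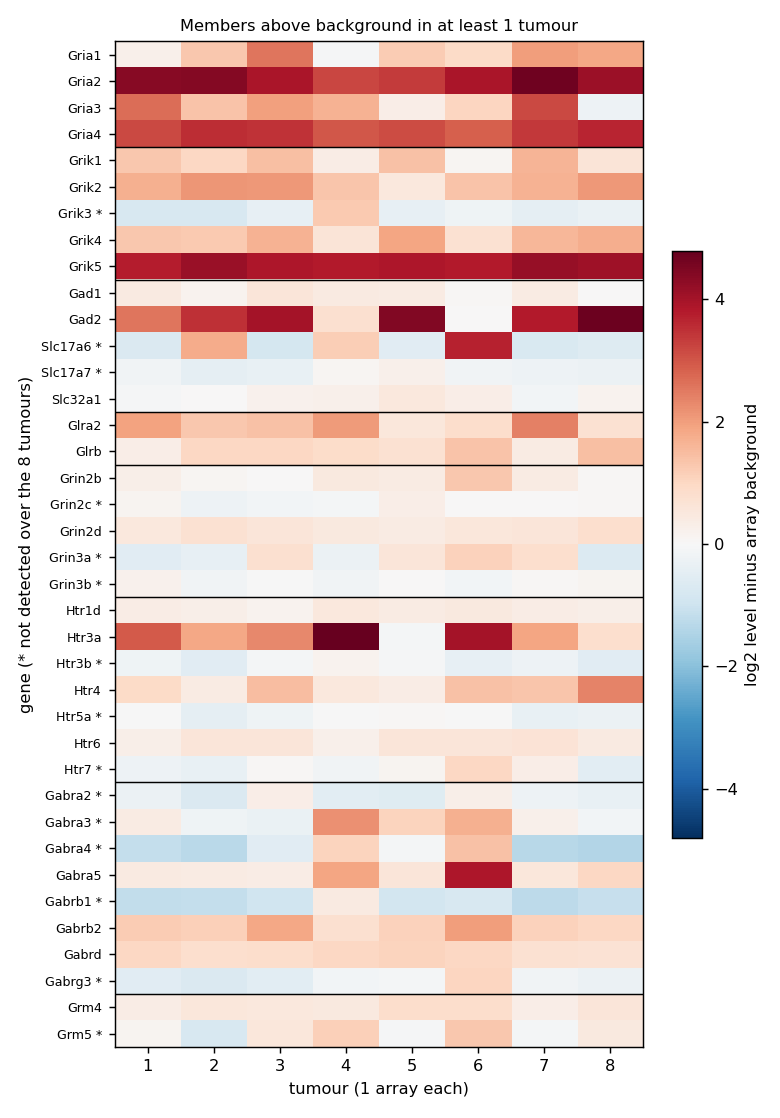
Log2 level after subtraction of each array's background (colour scale) for the 38 members above background in at least 1 tumour (rows, by family between black lines) in tumours 1 to 8 (columns); an asterisk marks genes not detected over the 8 tumours. Colours compare tumours within a row only, since probe sets differ in their response; Gria2, Gria4 and Grik5 are high throughout, whereas Gad2, Htr3a, Slc17a6 and Gabra5 change from tumour to tumour.

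Of the GABA-A receptor genes, 3 of 16 were detected: Gabra5, Gabrb2 and Gabrd. Gabrb2, a beta subunit of the common synaptic receptor, ranged from 6.45 in tumour 4 to 7.53 in tumour 6 with a median of 6.75 (1.27 above background, limma, adjusted p = 1.16e-06). Gabrd, which forms receptors outside synapses, stayed between 6.27 and 6.70 (SD 0.17; limma, adjusted p = 4.23e-08). Gabra5, an alpha subunit of receptors that give tonic currents, reached 9.40 (tumour 6) and 7.56 (tumour 4) and lay between 5.81 and 6.58 in the other 6. Its mean of 6.73 ± 1.21 (SD, n = 8) was detected (limma, adjusted p = 0.0158), and the SD was 0.58 without tumour 6 and 0.25 without tumours 4 and 6.

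Of the 4 other measured alpha subunit genes, Gabra3 and Gabra4 were also highest in tumours 4 and 6. Gabra4, named here after its values were seen, reached 6.75 and 6.93 there, with 4.18 to 5.54 elsewhere, and was above background in those 2 tumours alone. Gabra3 was highest in tumours 4, 6 and 5 (7.85, 7.25 and 6.70), and its mean of 6.21 just missed the threshold (limma, adjusted p = 0.0681), whereas it passed without tumour 2 or tumour 3 (0.74 and 0.75 above background, limma, adjusted p = 0.0483 and 0.0405). Gabrb1 was above background in tumour 4 alone (6.11) and Gabrg3 in tumour 6 alone (6.56), while Gabra2 was above it in tumours 6 and 3 (5.82 and 5.77). The 8 remaining GABA-A genes, among them Gabra6 and the rho subunits Gabrr1, Gabrr2 and Gabrr3, had means from 3.49 to 4.99 and were above background in no tumour.

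Other genes of GABA signalling were taken from lists. The chloride importer Slc12a2 was at 8.86 ± 0.25 (SD, n = 8), 3.27 above background, and the exporter Slc12a5 at 5.95 ± 0.28, 0.36 above background (limma, adjusted p = 2.53e-12 and 0.00297). Probe sets differ in response, so the importer and exporter levels are not read against each other. All 6 measured inhibitory synapse scaffold genes were detected, with gephyrin (Gphn) at 9.39 ± 0.16. The metabotropic GABA-B receptor genes Gabbr1 and Gabbr2 were at 9.98 ± 0.24 and 8.41 ± 0.43. Of the uptake transporters for these transmitters, listed together with vesicular Slc17a8, 4 of 11 were detected, against 57.3% of all genes, and of these Slc6a11, a GABA transporter of glia, varied most, with 9.03 in tumour 4 and 5.77 to 7.37 in the other 7.

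Glycine receptors were represented by Glra2, the alpha subunit typical of the fetal nervous system, and by Glrb, the beta subunit that binds gephyrin. Glra2 ran from 6.19 in tumour 5 to 7.98 in tumour 7 with a median of 6.88 (limma, adjusted p = 6.38e-05). Glrb ran from 5.96 in tumour 1 to 7.03 in tumour 8 with a median of 6.48. Glra1, Glra3 and Glra4 had means from 4.02 to 5.05 and were above background in no tumour. For Glrb with Gphn no relation was seen (Pearson r = 0.14, exact permutation p = 0.758, Spearman rho = 0.24, exact p = 0.582, adjusted p = 0.842 and 0.647, n = 8). Gphn hardly varied, with an SD of 0.16, the same as the median SD of the olfactory, vomeronasal and taste receptor probe sets (0.16). The test could therefore not decide whether the 2 genes are related.

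The serotonin channel subunit Htr3a varied most among the serotonin receptors. It was at 8.57, 7.48, 7.76, 10.79, 5.53, 9.54, 7.47 and 6.39 in tumours 1 to 8. Tumours 4 and 6 were highest, and tumour 5 was below its array background of 5.63. The mean was 7.94 ± 1.68 (SD, n = 8), 2.35 ± 0.52 (SE) above background (limma, adjusted p = 0.00163), and without tumours 4 and 6 the SD was 1.08. Htr3b, which forms channels only with Htr3a, averaged 5.34 ± 0.28 and was above background in 1 tumour, tumour 4 (5.85).

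The G protein-coupled serotonin receptors detected were Htr4, Htr6 and Htr1d. Htr4, which raises cyclic AMP, ranged from 5.97 in tumour 5 to 7.94 in tumour 8 with a median of 6.73 (limma, adjusted p = 0.000564). Htr6, which also raises it, and Htr1d, which lowers it, were at 6.08 ± 0.14 and 5.94 ± 0.16 (SD, n = 8). Htr7 was above background in 4 of 8 tumours and highest in tumour 6 (6.51), and Htr5a in 1. The other 7 genes had means from 4.01 to 5.18 and were above background in none. The enzymes that start serotonin synthesis were not detected: Tph1 was at 4.30 ± 0.09 and Tph2 at 5.35 ± 0.40. The enzymes that degrade monoamines, Maoa and Maob, were at 8.98 ± 0.97 and 7.78 ± 1.19 and lowest in tumour 6 (7.09 and 5.30).

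Spread between tumours was wide for a few members. An SD of at least 1 was found for 4 of the 23 detected members, Gad2, Htr3a, Gabra5 and Gria3, against 1.23% of all detected genes, and these 4 also had a range of at least 3. Without tumours 4 and 6, Gria3 and Htr3a remained above that SD, against 84 of all detected genes in place of 156 of 12715. An SD above 0.41, the 99th percentile of the olfactory, vomeronasal and taste receptor probe sets, was found for 12 of the 23, against 14.6% of all detected genes. The median SD was 0.42 for detected members and 0.23 for all detected genes. There are no technical replicates, so the noise of single genes was not measured.

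The members were also counted by the tumour in which they were highest or lowest. Of the 23 detected members 6 were highest in tumour 4 or 6, against 31.6% of all detected genes, and 8 were lowest there, against 29.0%. The glial genes Sox10 and Erbb3 were high in tumours 4 and 6, Sox10 at 8.32 and 8.05 and Erbb3 at 9.50 and 8.58, against at most 6.30 and 6.48 elsewhere. Glial Slc1a3, a glutamate transporter, was at 7.70 and 6.60 there and at most 5.69 elsewhere. The other listed glial markers were mixed. Fabp7 was at 12.03 and 11.51 in tumours 4 and 6 and at most 8.96 elsewhere. Gfap reached 10.71 in tumour 4 but was at 5.93 in tumour 6. Mbp was at 7.31 and 6.89 in tumours 4 and 6, close to 6.80 in tumour 3. S100b was at 6.20 in tumour 4 but at 5.03 in tumour 6, below the array background of 5.54. The mean of the muscle markers was highest in tumour 6 (8.28), followed by tumours 3 (7.31) and 8 (7.25). Myh4, not detected over the tumours, was at 8.96 in tumour 6 and at most 5.68 elsewhere. Detected Acta1 and Tnnt3 were at 10.43 and 9.44 there, close to 10.14 and 9.15 in tumour 8. Myod1 was highest in tumour 4 (5.84). What part any glial or muscle cells had in the levels of the receptor genes was not tested.

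Relations between single genes were computed for 10 of 20 chosen pairs, those in which both genes were detected, with a two-sided exact permutation test over all 40320 pairings. The pairs were chosen with earlier results of these data known, so their p-values are read as descriptions only. Gad2 rose and fell with Dbh, the enzyme that makes noradrenaline (Pearson r = 0.84, exact permutation p = 0.00337, adjusted p = 0.0337, n = 8; Spearman rho = 0.71, exact p = 0.0576, adjusted p = 0.288). Without tumours 4 and 6, the 2 farthest from the median of Gad2, r was 0.54 (exact permutation p = 0.267, n = 6), and the relation did not hold without that pair of tumours. It was 0.94 without tumour 4 alone and 0.75 without tumour 6 alone. Leaving out tumour 1, 4, 5, 6 or 7 alone took the adjusted exact permutation p past the threshold, to between 0.0615 and 0.17, with r from 0.75 to 0.94 over the 7 tumours left. No other pair passed. Htr3a with Dbh came nearest by rank (Spearman rho = -0.88, exact p = 0.00724, adjusted p = 0.0724), with Pearson r = -0.61 (exact permutation p = 0.122, adjusted p = 0.272, n = 8). Without tumours 4 and 5, the 2 farthest from the median of Htr3a, its r was -0.84 (exact permutation p = 0.0194, adjusted p = 0.194, n = 6). Gad2 with Dlx5, a homeobox gene of GABAergic forebrain neurons, gave r = 0.32 over all 8 (exact permutation p = 0.444, adjusted p = 0.634, Spearman rho = 0.24, exact p = 0.582, adjusted p = 0.647). Without tumour 8, where Dlx5 was at 4.99 and Gad2 at its highest, r was 0.89 (exact permutation, adjusted p = 0.0496, n = 7), but without tumours 4 and 6 it was -0.30 (exact permutation p = 0.528, n = 6), so the sign turned. For Gad2 and Htr3a with Sox10, nothing is read from the r over all 8 tumours, because tumours 4 and 6 form a separate cluster in Sox10; both pairs were kept in the adjustment and neither passed (exact permutation, adjusted p = 0.158 and 0.159).

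The detected members most like each wide one were named by Pearson's r over the 8 tumours, as a description. Gad2 was most like Grik4 (r = 0.96, Spearman rho = 0.93) and most unlike Htr3a (r = -0.90, rho = -0.88). Both kept their sign in the 6 tumours other than 4 and 6, with r of 0.83 and -0.89. Tumours 5 and 8 thus had the highest Gad2 and the lowest Htr3a. Gria3 was most like Glra2 (r = 0.89, rho = 0.86, and r = 0.96 in those 6 tumours): both were highest in tumour 7. Gabra5 was most like Grin2b (r = 0.89, rho = 0.76), but r was 0.17 in the other 6, so tumours 4 and 6 carry it. This holds for the Grin2b probe set used, and the other one, above background in no tumour, had an r of 0.35 with it. Htr3a was most like Gabra5 (r = 0.59), with r of -0.58 in the other 6. The points of each pair share their arrays and the tumours' cell make-up.

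**Figure D4:**
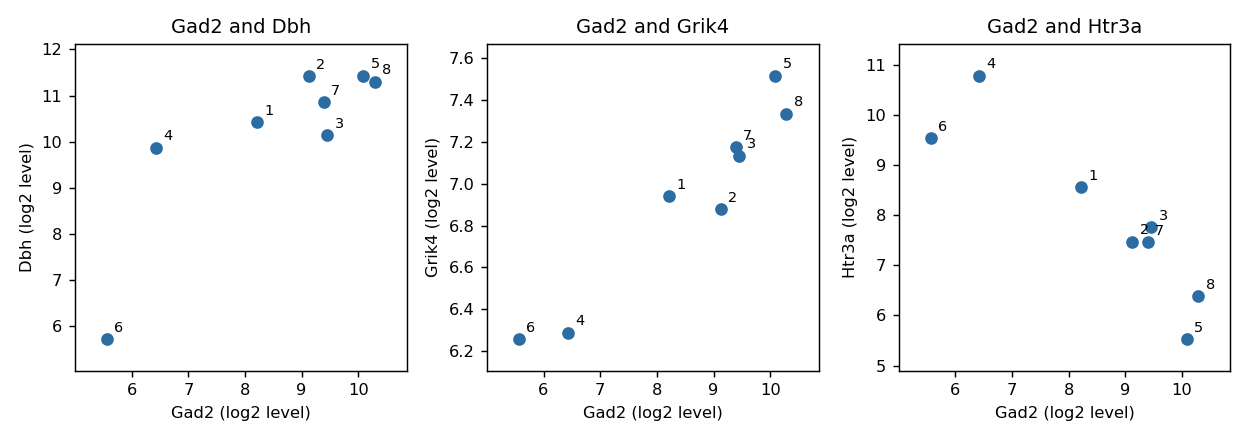
Log2 level of Gad2 (horizontal axes) against that of Dbh, Grik4 and Htr3a (vertical axes), 1 point per tumour with its number (n = 8). In the Gad2 and Dbh plot tumour 6 stands apart at the lower left; Grik4 goes up with Gad2 and Htr3a goes down, also among the 6 tumours other than 4 and 6.

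Of the scaffold genes of glutamate synapses, 16 of 17 were detected, against 57.3% of all genes. Dlg4, the scaffold of the postsynaptic density, was at 8.45 ± 0.36 and Homer3, which links metabotropic receptors to that scaffold, at 7.96 ± 0.14 (SD, n = 8). Of the enzymes that make or break down these transmitters, 8 of 10 were detected, against the same 57.3%. Abat, which degrades GABA, ran from 7.23 in tumour 6 to 9.76 in tumour 8, and Ddc, which completes serotonin and dopamine synthesis, from 5.61 in tumour 6 to 10.34 in tumour 2. Shmt2, the mitochondrial enzyme that makes glycine, was highest in tumour 6 (11.25) and lowest in tumour 7 (8.76).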

How the data were processed

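Biotin-labelled RNA of each tumour was hybridised to an Affymetrix mouse array. The deposited values are log2 levels per probe set, for which the submitters' processing notes name RMA and Partek 6.5 without their roles. Values from 2.07 to 13.61 show that scale. Of their build, filters and annotation nothing is given in the sources used here. RMA shares a distribution between arrays, which hides global shifts, and probe sets differ in response, so levels are compared across tumours and not across genes.

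Of 41345 probe sets 23521 have 1 symbol, 1814 several and 16010 none; genes were read from the first kind. Detection used limma 3.58.1 in R 4.3.3 (trend, robust prior) on level minus array background, with Benjamini-Hochberg adjustment over all 22180 genes, and was tested on simulated data. Relations used exact permutation in Python 3.11.15 with scipy 1.17.1 and numpy 2.4.6. The number of arrays limits precision. Alternatives were the mean of all probe sets, median-centred arrays, 2 other background percentiles, limma without trend, and left-out tumours. Named genes are the 5 synthesis and vesicle genes, detected members with an SD of at least 1, the 2 highest detected members per family and pathway genes fixed by list; others were chosen after their values were seen. Members, lists and pairs were chosen with earlier results of these data known.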

Additional observations from a re-analysis of the deposited data

Results flagged for a closer look

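In 6 of the 62 members 1 tumour stood apart from the other 7, with a gap to its neighbour that was too large a share of the whole range by Dixon's 95% critical value. Chance flags about 1 in 20 groups. Of the 6, 4 were high in tumour 4: Grik3 (gap 0.760 of the range), Gabrb1 (0.754), Grm3 (0.653) and Gabrg1 (0.570). Gabrg3 was high in tumour 6 (0.641), and Glra4 was low in tumour 5 (0.564). None of these 6 was detected over the tumours, and Grm3, Gabrg1 and Glra4 were above background in no tumour. Dixon's critical value was applied to the 62 members alone. How often tumour 4 stands apart among all measured genes was not tested, so the 4 cases there are not read as particular to the members.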

How the results depend on the processing

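The background level decided most calls: 38 members were detected at the 90th percentile and 7 at the 99th, against 23. At the 99th percentile the mean fell below background for Gad1 (-0.70), Gabrd (-0.11), Glrb (-0.11), Grik1 (-0.022), Grin2b (-0.63), Grin2d (-0.43), Grm4 (-0.45), Htr1d (-0.65), Htr6 (-0.51) and Slc32a1 (-0.84), since a higher background was subtracted. Averaging all probe sets left 21 members and put Grin2b at -0.49; its other probe set alone, read after seeing the data, was at -1.37, and that of Slc32a1 at -0.013. Median-centred arrays and limma without trend kept 23. Leaving out 1 tumour gave 22 to 25. Calls of 7 detected members held under all alternatives run and those of 16 did not. Without tumours 4 and 6, 2 members and 84 genes had an SD of at least 1. Leaving out 1 tumour gave 3 to 4 members and 0 to 2 related pairs; without the 2 farthest tumours 0 pairs passed (exact permutation), 1 with an unadjusted p under 0.05. No paired analysis was possible because there is 1 group. Signal close to background limits the low members.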
